A study of Mus musculus with 6 samples.

Results

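The contractile genes of smooth muscle were followed in mouse pancreatic islets over 6 times of day. The 10 genes were Acta2, Actg2, Tagln, Myh11, Cnn1, Des, Lmod1, Smtn, Synpo2 and Mylk, and they were 10 of the 24147 genes measured. They were found on the arrays as 13 probes designed to RefSeq transcripts of these genes. Actg2 and Des were set apart as the visceral pair, and the other 8 were grouped as vascular or shared. Islets, the hormone-secreting tissue of the pancreas, were freed with collagenase from male C57BL6 mice aged 8 weeks that ate chow and lived in 12 h of light followed by 12 h of dark. The groups were the 6 times ZT0, ZT4, ZT8, ZT12, ZT16 and then ZT20, where ZT is zeitgeber time, counted in hours from lights on. For each, the RNA of 3 to 5 mice was pooled and put on 1 Agilent array, so no time had a replicate and no test between times was possible. The genes were chosen with their values on these 6 arrays known, so those values are given as a description, with no test.

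Smooth muscle contracts when a rise in calcium activates myosin light chain kinase, which phosphorylates the light chain of smooth muscle myosin and lets the myosin pull on filaments of smooth muscle actin. Calponin, transgelin and leiomodin bind the actin filament, and desmin filaments tie the contractile units to the rest of the cell. In the pancreas these genes are known from the walls of arteries and ducts and, for some of them, from pericytes and activated stellate cells, whereas the gamma actin encoded by Actg2 is the enteric form of the gut and bladder wall.

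The arrays held 43020 spots each, of which 66.1% (ZT4) to 84.4% (ZT0) were well above background, with 0 saturated. Outlier spots numbered 1743 at ZT0 and 166 to 247 elsewhere. The 75th percentile of the processed signal was 543 at ZT4 and 1288 to 2181 on the other arrays. The 4 arrays from ZT8 to ZT20 had the same scan identifier, which is taken here to mean 1 shared slide, while those of ZT0 and ZT4 were each scanned apart. All 12 endocrine markers, among them Ins2 (insulin) and Iapp (amylin), were well above background on all 6 arrays. Their median deviation from each marker's own mean was 0.84, -1.15, 0.23, -2.37, 1.08 and 0.97 log2 units over the 6 times from ZT0 to ZT20. Not every marker followed this median: Ins1 and Ins2 were highest at ZT4, and Iapp was highest at ZT0 and next at ZT4. Levels below are log2 signal relative to the 75th percentile of the same array, and are compared between arrays for 1 probe at a time.

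Most of the contractile genes were lowest at ZT16 and highest at ZT4. At ZT16, 8 of the 10 were at least 2-fold below the median of the other 5 arrays, against 13.8% of all genes measured. There, 0 were 2-fold above, against 10.7% of all genes. At ZT20 the count was 7 of 10 below, against 12.5% of all genes, and 0 above, against 12.8%. At ZT4, 6 of 10 were at least 2-fold above (background 21.8%) and 1, Myh11, was 2-fold below (background 21.8%). The other arrays set few members apart. At ZT0, 1 was above (background 16.8%) and 1 below (background 19.7%), while at ZT8 and ZT12 2 were above (backgrounds 8.49% and 17%) and 0 below (backgrounds 2% and 20.3%). The genes were chosen on these same arrays, so nothing is read from these counts about islets at a given hour.

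The median deviation of the 10 genes from their own means was 0.47, 1.38, 0.15, 0.51, -2.25 and -0.80 log2 units over the 6 times from ZT0 to ZT20. The same median over all genes lay between -0.03 and 0.06 on every array. With another background correction (normexp) the ZT16 value was -1.02, and without the ZT4 array the ZT8 value was 0.85. Within the 4 arrays of the shared slide alone the medians were 0.99, 1.24, -1.98 and -0.33 in order of time. In pooled bulk RNA, fewer cells of a type and less RNA per cell cannot be told apart.

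**Figure D1:**
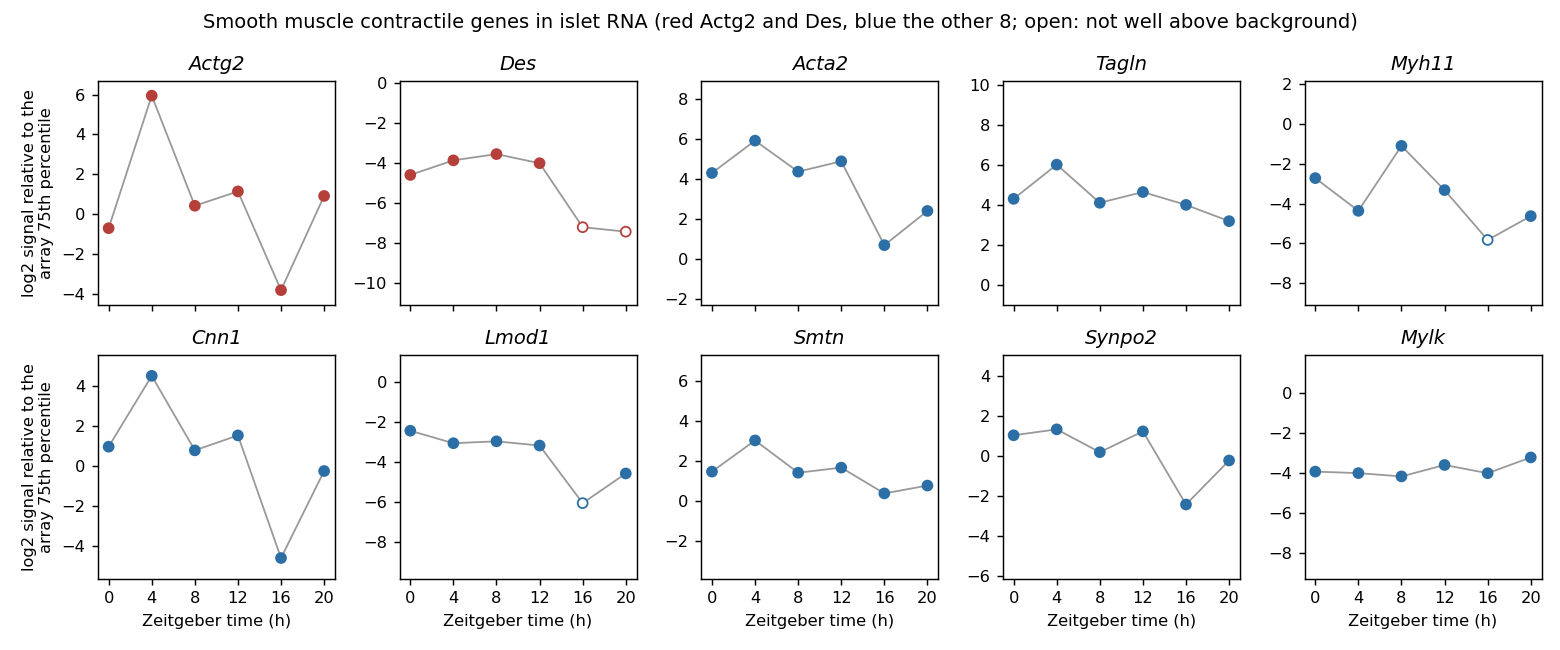
Levels of the 10 contractile genes on the 6 arrays. Each panel plots log2 signal relative to the array's 75th percentile (y axis, the same height in every panel) against zeitgeber time in hours, with 1 point per array of pooled RNA and no error bars because no time had a replicate. Open points were not well above background. Actg2 and Cnn1 run from their highest point at ZT4 to their lowest at ZT16, while Mylk stays within 0.95 log2 units.

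The actins form the thin filament. Acta2, alpha smooth muscle actin, had levels of 4.31, 5.93, 4.38 and 4.90 on the arrays from ZT0 to ZT12, 0.70 at ZT16 and 2.41 at ZT20. It stood at 1 high value, 3 values close together and 2 low values, and ZT4 was 37.6-fold above ZT16. This probe was printed as 10 spots on each array, and the SD between its spots was 0.04 to 0.09 log2 units, which is the scatter of spots within an array and not that of mice or hybridisations. Actg2, the enteric actin, had levels of -0.69, 5.94, 0.43, 1.15, -3.79 and 0.92 over the 6 times. Its ZT4 value lay 5.51 log2 units (45.6-fold) above the median of the other 5 arrays and its ZT16 value 853-fold below ZT4, the widest span of the 10 genes. After quantile normalization the spans of Actg2, Cnn1 and Acta2 were 8.85, 8.42 and 4.38 log2 units, in place of 9.74, 9.12 and 5.23, and with normexp those of Actg2 and Cnn1 were 8.67 and 7.71. Without the ZT0 and ZT4 arrays the span was 30.8-fold, between ZT12 and ZT16. Actin genes share much of their coding sequence, and how far their probes separate them was not tested.

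The proteins that bind the actin filament came next. Cnn1, calponin, an inhibitor of the myosin motor, had levels of 0.99, 4.53, 0.80, 1.55, -4.59 and -0.23 over the 6 times from ZT0 to ZT20. As for Actg2, ZT4 was the high array and ZT16 the low one, 556-fold apart, and 70.5-fold remained between ZT12 and ZT16 on the shared slide. Tagln, transgelin, an actin-binding protein abundant in smooth muscle, had levels of 4.32, 6.03, 4.12, 4.66, 4.01 and 3.20. ZT4 was again the highest, but ZT20 and not ZT16 was the lowest, 7.10-fold apart, and the ZT16 level lay only 0.30 log2 units under the median of the other arrays. After quantile normalization the span of Tagln was 1.72 log2 units in place of 2.83.

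Lmod1, leiomodin, which starts new actin filaments, had levels of -2.43, -3.06, -2.96, -3.17, -6.06 and -4.57 over the same times. It had no peak at ZT4: the first 4 arrays lay within a narrow band, and the ZT16 spot was not well above background, so ZT0 was at least 12.3-fold higher than ZT16. Smtn, smoothelin, a protein of contractile smooth muscle cells, had levels of 1.46, 3.02, 1.41, 1.66, 0.37 and 0.76 on its brighter probe, with ZT4 6.29-fold above ZT16. Synpo2, synaptopodin 2 or myopodin, an actin-bundling protein, had levels of 1.03, 1.33, 0.18, 1.23, -2.43 and -0.23 on its brightest probe. ZT16 was the array apart, 13.6-fold below ZT4, and the arrays at ZT0, ZT4 and ZT12 were close to each other.

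The probes of Synpo2 did not show the same course. Its second probe, designed to the same transcript, had levels of -6.03, -2.10, -2.72, -2.71, -1.98 and -0.46, lowest at ZT0 and highest at ZT20, 47.3-fold apart. Its remaining probe had levels of -5.11, -3.83, -2.56, -3.20, -1.31 and -2.22, lowest at ZT0 and highest at ZT16, 14.0-fold apart. All 3 were well above background on all 6 arrays, so the fall at ZT16 rested on 1 of 3 probes. Smtn had a second probe, to another transcript, with levels of -3.24, -2.66, -2.27, -2.48, -3.48 and -2.13. It shared the low value at ZT16 with the first probe but had no peak at ZT4, and it spanned 2.55-fold. With the mean of all probes the spans of Smtn and Synpo2 were 1.74 and 2.4 log2 units, in place of 2.65 and 3.76. The other 8 genes had 1 RefSeq probe each.

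**Figure D2:**
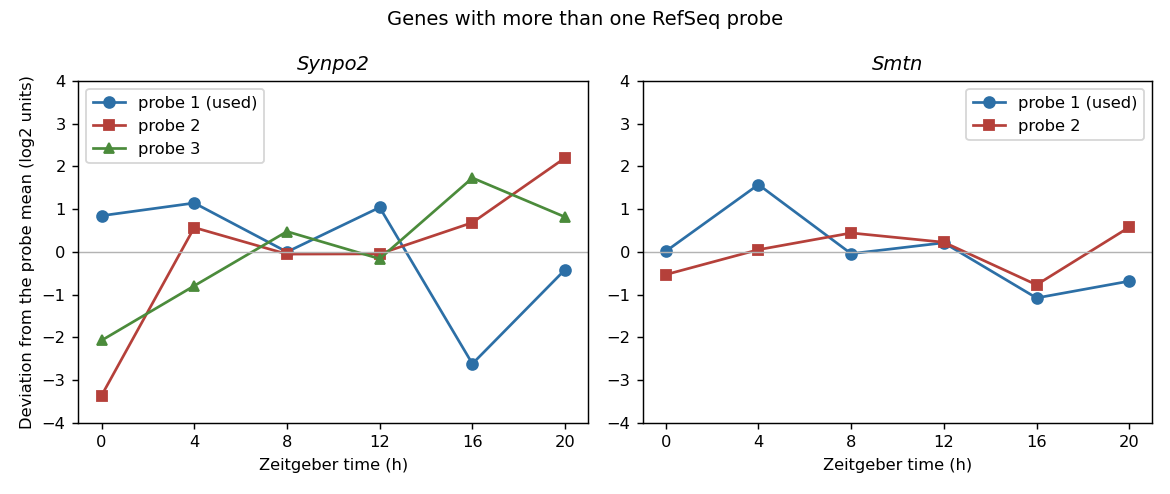
Probes of Synpo2 (left) and Smtn (right), each as its deviation from its own mean over the 6 arrays in log2 units (y axis) against zeitgeber time in hours, 1 point per array. The Synpo2 probe used is lowest at ZT16, whereas the other 2 are lowest at ZT0; both Smtn probes are lowest at ZT16.

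The motor and its switch differed from the actins. Myh11, the smooth muscle myosin heavy chain, had levels of -2.73, -4.37, -1.11, -3.33, -5.82 and -4.63 over the 6 times. Its high array was ZT8, which was at least 26.2-fold above ZT16, where the spot was not well above background. At ZT4, where Acta2, Actg2, Cnn1 and Tagln were highest, Myh11 lay 1.04 log2 units below the median of the other arrays. With the normexp correction this low value was lost, and the deviation of Myh11 from its mean at ZT4 was 0.09 in place of -0.70. Mylk, myosin light chain kinase, had levels of -3.93, -4.01, -4.17, -3.60, -4.01 and -3.22. It spanned 1.93-fold in all, with its highest value at ZT20, and its range was wider than that of only 8.40% of all genes. Des, desmin, the intermediate filament of muscle, had levels of -4.58, -3.85, -3.54, -4.0, -7.20 and -7.43. The ZT16 and ZT20 values were not well above background on any of its 10 spots and have no order, and ZT8 was at least 12.4-fold above ZT16. The first 4 arrays of Des lay close together, and the SD between its spots there was 0.11 to 0.21 log2 units.

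Across the 10 genes, 9 spanned 4-fold or more over the 6 arrays, against 53.2% of all genes. The span of Actg2 was wider than that of 99.9% of all genes, that of Cnn1 than 99.8%, Acta2 96.2%, Myh11 93.5%, Synpo2 85.1%, Des 83.6%, Lmod1 83.5%, Tagln 70.4% and Smtn 66.4%. The spans of Des, Myh11 and Lmod1 are lower bounds, and with the normexp correction they were 1.73, 2.56 and 1.63 log2 units, in place of 3.63, 4.71 and 3.62. Of the 10, 8 had their lowest value at ZT16 (background 13.1%), with Des tied with ZT20, and 6 had their highest at ZT4 (background 23.4%).

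**Figure D3:**
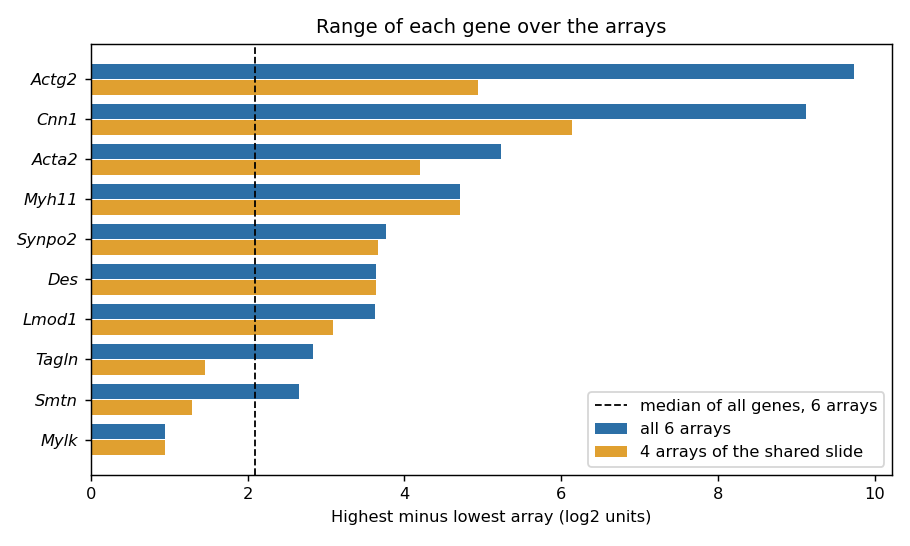
Range of each contractile gene, as highest minus lowest array in log2 units, over all 6 arrays (blue) and over the 4 arrays that shared a slide (orange). The dashed line is the median range of all 24147 genes over 6 arrays, 2.09. Bars of Des, Myh11 and Lmod1 are lower bounds. All genes but Mylk exceed the line over 6 arrays; the orange bars cover fewer arrays, so the line is no measure for them.

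The visceral pair did not move as one. At ZT4 Actg2 deviated from its own mean by 5.28 log2 units and Des by 1.19, and at ZT0 by -1.35 and 0.46. At ZT20 Actg2 was at 0.26, back near its mean, while Des was at -2.08, a value at the detection limit. The mean deviation of the pair at ZT4 was 3.24, against 1.29 for the other 8 genes, a difference of 1.95. The differences at ZT0, ZT8, ZT12, ZT16 and ZT20 were -0.93, 0.20, 0.17, -1.17 and -0.21. Cnn1, which is in the other group, had a course closer to Actg2 (Pearson's r = 0.928 over 6 arrays) than Des had (r = 0.562), so the 2 groups did not divide the genes by course. Acta2 lay nearest to the mean of the other 9 (r = 0.991), followed by Cnn1 (0.971), Synpo2 (0.928) and Smtn (0.906), while Myh11 (0.464) and Mylk (-0.177) lay furthest. These correlations rest on the same 6 arrays for every gene and are a description.

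**Figure D4:**
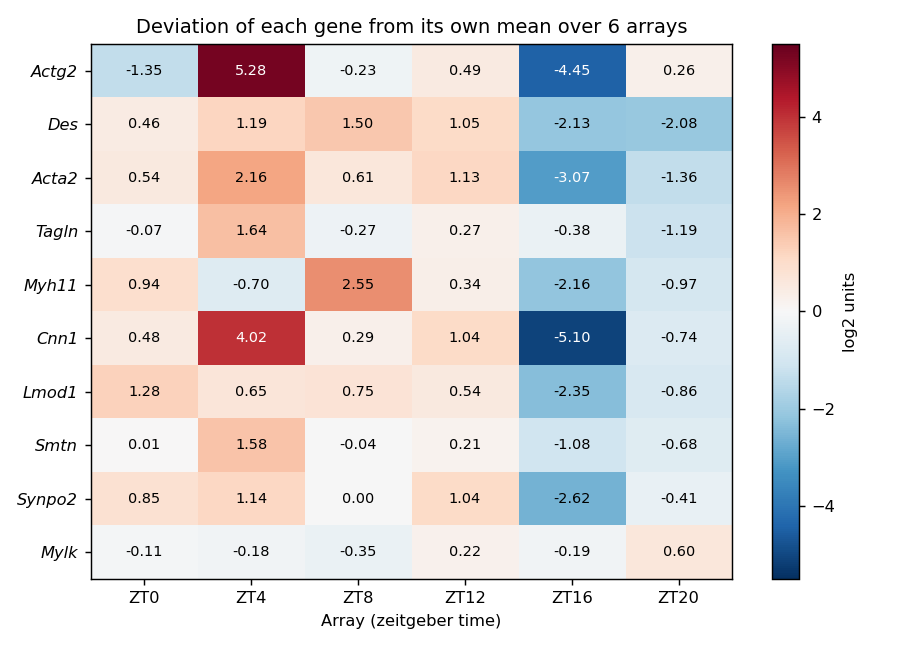
Deviation of each contractile gene (rows, visceral pair at the top) from its own mean over the 6 arrays (columns, by zeitgeber time), in log2 units, red above and blue below. Values of Des at ZT16 and ZT20 and of Myh11 and Lmod1 at ZT16 are at or near the detection limit. Synpo2 and Smtn are shown by their brightest probes. The ZT16 column is below 0 for all 10 genes, from -5.10 for Cnn1 to -0.19 for Mylk.

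The ZT16 and ZT20 arrays, both of the dark phase, were low, but not equally. Between ZT20 and ZT16, which shared a slide, 6 of 10 genes were higher at ZT20 by 2-fold or more (background 6.54%) and 0 were lower by 2-fold (background 2.75%). The median difference of ZT20 minus ZT16 was 1.34 log2 units, against -0.02 over all genes. Actg2 was higher by 4.71, Cnn1 by 4.36, Acta2 by 1.71 and Synpo2, on its brightest probe, by 2.20 log2 units. On its second probe Synpo2 was also higher at ZT20 (-0.46 against -1.98), but on its remaining probe it was lower (-2.22 against -1.31). Lmod1 and Myh11, not well above background at ZT16, were higher by at least 1.48 and 1.19. With the normexp correction the differences of Lmod1 and Myh11 were 0.32 and 0.20. Tagln went the other way, with a difference of -0.81, and Des was not well above background on either array. Other smooth muscle genes, in the 5 lists described below, had median differences between -0.02 and 0.36 (0.36 for the thin filament and cytoskeleton). Over the 9 lists of other cell types the median difference lay between -0.23 and 0.46. The median difference was 0.12 for the 12 fibroblast and stellate cell markers, -0.12 for 10 pericyte markers, 0.23 for 10 lymphocyte markers and -0.18 for 12 endocrine markers.

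Between ZT16 and ZT12, on the same slide, 8 of 10 genes were lower at ZT16 by 2-fold or more (background 21.6%), with a median difference of -3.03. Cnn1 differed by -6.14, Actg2 by -4.94, Acta2 by -4.20 and Synpo2, on its brightest probe, by -3.66, whereas Tagln differed by -0.64 and Mylk by -0.41. The remaining Synpo2 probes were higher at ZT16, at -1.98 and -1.31 against -2.71 and -3.20 at ZT12. Between ZT4 and ZT0, scanned apart, 5 of 10 were higher at ZT4 by 2-fold or more (background 27.4%) and 1 was lower (background 25%). Actg2 differed by 6.64, Cnn1 by 3.55, Tagln by 1.71, Acta2 by 1.62 and Smtn by 1.56, against -1.64 for Myh11 and 0.73 for Des. The difference of Myh11 turned to 0.06 with the normexp correction.

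Promoter sequence was compared because most members were low together at ZT16. Smooth muscle genes are known to be switched on by serum response factor, which binds the CArG box, a run of 2 C, 6 A or T, and 2 G. The table of promoters (RefSeq, GRCm38.p6, 250 bases before to 50 after the start of the gene) held 7 of the 10 genes, without Actg2, Tagln and Myh11. A complete CArG box was in 0 of the 7, against 1.63% of all 32851 promoters, and a box with up to 1 mismatch in 2 of 7, against 21.1% of all promoters. The pattern reads the same on both strands. Each of those 2 promoters, of Acta2 and Lmod1, held 2 such boxes, while 3.70% of all promoters held 2 or more. They are printed 5′ to 3′ with the boxes in capitals, beside that of Cnn1, whose course was like that of Acta2 and whose window held none. The Acta2 promoter is chr19:34255324-34255623 on the minus strand, that of Lmod1 chr1:135324563-135324862 on the plus strand and that of Cnn1 chr9:22099003-22099302 on the plus strand.
Acta2: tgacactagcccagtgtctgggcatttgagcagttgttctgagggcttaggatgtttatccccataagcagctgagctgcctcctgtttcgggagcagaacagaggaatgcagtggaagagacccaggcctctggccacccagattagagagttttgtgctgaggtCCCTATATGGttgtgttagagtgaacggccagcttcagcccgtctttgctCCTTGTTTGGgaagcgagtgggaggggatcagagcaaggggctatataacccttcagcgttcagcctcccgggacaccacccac
Lmod1: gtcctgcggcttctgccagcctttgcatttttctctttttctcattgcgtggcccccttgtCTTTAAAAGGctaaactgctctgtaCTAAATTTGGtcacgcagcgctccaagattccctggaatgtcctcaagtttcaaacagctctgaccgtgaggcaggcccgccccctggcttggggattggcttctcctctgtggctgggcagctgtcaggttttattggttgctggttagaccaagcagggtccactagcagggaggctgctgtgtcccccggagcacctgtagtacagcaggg
Cnn1: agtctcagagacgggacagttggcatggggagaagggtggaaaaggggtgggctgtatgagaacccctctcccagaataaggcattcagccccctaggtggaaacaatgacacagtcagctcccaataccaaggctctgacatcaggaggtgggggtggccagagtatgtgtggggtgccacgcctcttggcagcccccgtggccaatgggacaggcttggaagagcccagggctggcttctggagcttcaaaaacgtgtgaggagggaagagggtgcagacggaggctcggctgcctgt
In Acta2 the boxes lie at bases -84 to -75 and -34 to -25 from the annotated start, and in Lmod1 at -189 to -180 and -164 to -155. Whether transcription begins at the annotated start was not checked, so these distances hold for the annotation only. The windows of Des, Synpo2, Smtn and Mylk held none with up to 1 mismatch. These are matches of letters in a short window, and boxes further away, such as within an intron, were not searched.

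Other genes of the contractile pathway were taken from 5 lists that held none of the 10 members. Of 86 listed genes, 75 were measured. A 24 h cosine was fitted across all genes with limma and its moderated F test, and 0 of the 75 passed after Benjamini-Hochberg adjustment over all genes (background 0%; smallest adjusted p = 0.754). At an unadjusted p under 0.05 there were 4 of 75 (5.33%), against 4.01% of all genes. They were Tpm2 (beta tropomyosin), Cnn2 (calponin 2), Myl9 (the regulatory light chain of smooth muscle myosin) and Tgfb1 (transforming growth factor beta 1). Their fitted peak minus trough was 4.36 ± 1.09, 5.38 ± 1.29, 3.86 ± 1.0 and 4.31 ± 1.02 (SE) log2 units, with the fitted peak at ZT6.23, ZT6.87, ZT5.58 and ZT6.83. Each had an adjusted p of 0.754 in that F test. The 4 were named because of their unadjusted p, and their share was near that of all genes, so no rhythm is read from them.

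The list nearest to the contractile genes was that of the thin filament and cytoskeleton. Of its 20 genes, 14 were at least 2-fold below the median of the other arrays at ZT16 (13.8% of all genes) and 11 were 2-fold above at ZT4 (21.8%). Its median deviation was 0.24, 1.18, 0.22, 0.75, -1.54 and -0.82 from ZT0 to ZT20. Tpm2 had levels of 0.08, 3.05, 1.95, 1.91, -2.15 and -0.39, close to the course of the actins. Cnn2 had 1.95, 3.54, 2.98, 4.03, -1.25 and -1.31, with ZT12 and not ZT4 the highest and ZT16 and ZT20 equally low. The 2 brightest, Tagln2 (transgelin 2) and Flna (filamin A), both of many cell types, spanned 5.53-fold and 11.1-fold with their highest level at ZT4.

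The medians of the other 4 lists moved less, though their single genes did not all do so. The median range of the transcription list was 2.84 log2 units, against 3.06 for the thin filament list. At ZT4, 5 of 13 transcription genes were 2-fold above and 4 below, and 3 of 13 calcium and channel genes above and 5 below (21.8% of all genes each way). At ZT16, 13.8% of all genes were 2-fold below and 10.7% 2-fold above. In the myosin list 3 of 16 were below and 2 above there, near those shares, and its median was -0.53. Myl9 had levels of 3.26, 5.52, 3.82, 4.09, 0.73 and 1.97, a course like that of Acta2. Dapk3, a kinase of the myosin light chain, ran the other way, with -2.51, -1.14, -0.05, -1.88, 0.82 and 3.19, while Myl6, the essential light chain, spanned 3.99-fold. In the list of calcium handling and channels 2 of 13 were below and 2 above at ZT16, also near the shares of all genes. Pde5a, which breaks down cyclic GMP, was highest at ZT4 and spanned 25.2-fold, Atp2a2, the calcium pump, was highest at ZT20, and Itpr1, the calcium release channel, spanned 2.07-fold. In the list of transcription and signalling genes 5 of 13 were below and 0 above at ZT16, among them Tgfb1 at -4.17 and Tgfbr2, a receptor of that factor, at -0.01. Mrtfa, a coactivator of serum response factor, had its highest level, 4.15, at ZT4 and its lowest, 1.06, at ZT20. In the list of receptors and adhesion 4 of 13 were below and 0 above at ZT16. Itga8 spanned 22.1-fold with its highest level at ZT12, Itgb1 10.2-fold and Cavin1 5.2-fold, whereas Ednra, the endothelin receptor, spanned 1.69-fold. Myocd, the main coactivator of smooth muscle genes, was well above background on 2 of 6 arrays and was not among the genes measured.

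**Figure D5:**
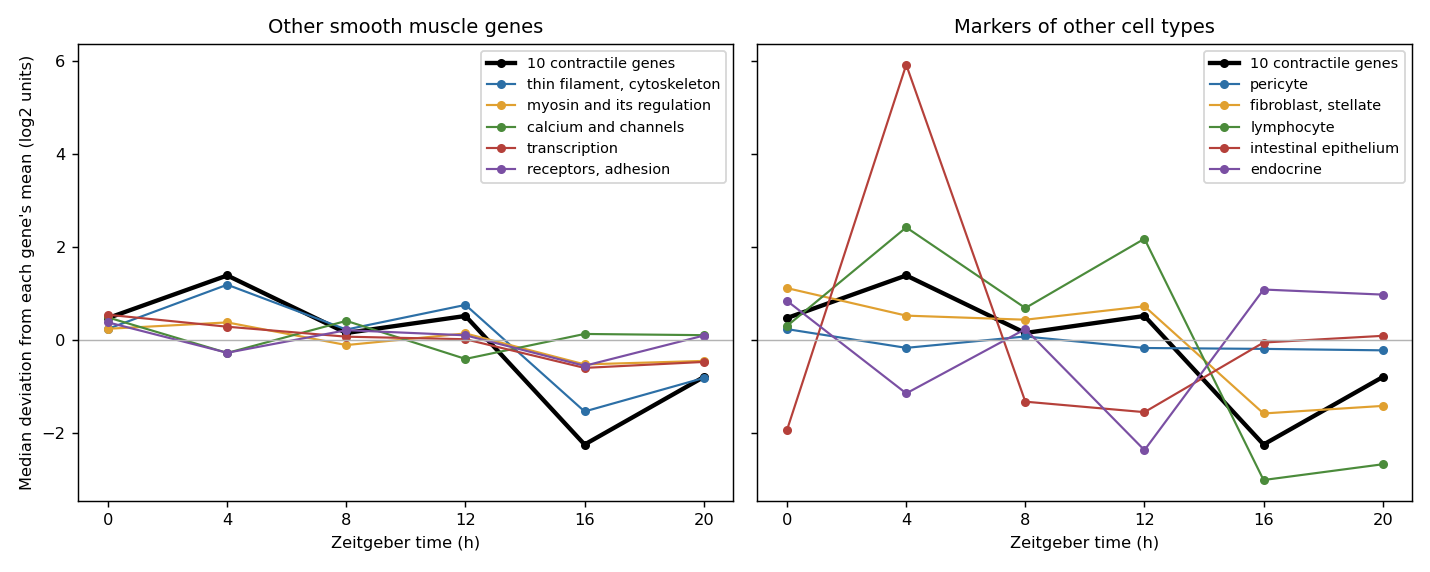
Median deviation of gene lists from each gene's own mean, in log2 units (y axis), against zeitgeber time in hours, 1 point per array; the thick black line is the 10 contractile genes. On the left are the 5 lists of other smooth muscle genes, of which the thin filament list is furthest down at ZT16 (-1.54). On the right are markers of other cell types: intestinal epithelium is at 5.92 at ZT4, and lymphocyte and fibroblast markers are at -3.02 and -1.58 at ZT16.

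Markers of 3 other cell types moved with the contractile genes on some arrays. Only the lymphocyte median was, like that of the contractile genes, highest at ZT4 and lowest at ZT16. The fibroblast median was highest at ZT0 (1.11, against 0.52 at ZT4). The intestinal epithelium median was lowest at ZT0 (-1.93, against -0.06 at ZT16). Of 12 fibroblast and stellate cell markers 11 were 2-fold below at ZT16 (13.8% of all genes) and 11 at ZT20 (12.5%). Their summed level, as a multiple of the array's 75th percentile, was 343, 354, 183, 277, 60.6 and 61.1 from ZT0 to ZT20. For comparison with this and the sums below, the same sum over all genes was 145977, 189981, 78957, 114428, 87713 and 84410, also highest at ZT4. Of the 12, 8 were highest at ZT0. Only Thy1, which is part of the sum, was highest at ZT4, with a level of 7.11 there and 4.18 at ZT0. It was next highest at ZT12 (6.44), and ZT4 and ZT12 were also the arrays on which most lymphocyte markers were 2-fold above. Which cells the Thy1 signal came from was not tested. Of 10 lymphocyte markers 9 were 2-fold below at ZT16 and 10 at ZT20, while 9 were 2-fold above at ZT4 (21.8% of all genes) and 10 at ZT12 (17%), where 2 of the 10 contractile genes were above. The lymphocyte markers had summed levels of 73.6, 346, 87.4, 242, 29.6 and 15.8. Of 7 intestinal epithelium markers measured, 5 were 2-fold above at ZT4 and 0 below (21.8% of all genes each way), with summed levels of 8.38, 340, 7.96, 2.12, 17.3 and 13.6. Among the last, Lgals4, a galectin of gut epithelium, had its highest level, 6.90, on the ZT4 array, on which Actg2 was also highest. Vil1, villin, was at 3.24 at ZT4 and highest at ZT16 (3.83), and Sis, sucrase-isomaltase, was lowest at ZT4 (-3.49). Every fibroblast and lymphocyte marker was well above background on all 6 arrays, whereas Cdx2 and Clca1, of gut epithelium, were so on 1 array each and were not among the genes measured. The part of these cell types in the contractile gene values was not tested.

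The medians of the remaining marker lists were not both highest at ZT4 and lowest at ZT16. The 10 pericyte markers had median deviations between -0.23 and 0.23, and Pdgfrb, a pericyte receptor, had levels of 2.55, 1.72, 1.5, 2.14, 0.74 and 0.74, with no peak at ZT4. Mcam, also of pericytes and of endothelium, was highest at ZT0 (6.62). Single genes of these lists did run close to the contractile genes, among them Kcnj8, a potassium channel of pericytes, highest at ZT4 and lowest at ZT16 (Pearson's r = 0.923 over 6 arrays with the mean of 7 members). The endothelial genes Egfl7 (0.880) and Esam (0.875) were likewise highest at ZT4. Others of the same lists ran the opposite way. Rgs5, of the pericyte list, was highest at ZT16 and not well above background at ZT4. Of the endothelial list, Pecam1 was lowest at ZT4 and Tek was not well above background there. At ZT4, 2 of 10 pericyte markers were 2-fold above and 2 below, and 3 of 10 endothelial markers above and 4 below (21.8% of all genes each way). For 10 endothelial markers the median lay between -0.56 and 0.46, and for 8 measured markers of striated muscle between -0.40 and 0.56. Of the skeletal muscle genes, Ckm, Myh1 and Myh4 were well above background on 0 of 6 arrays, whereas Acta1, Tnnt3 and Mylpf were so on 6 and Myh2 on 5. For 11 markers of interstitial cells of Cajal and enteric neurons the median was lowest at ZT12 (-1.82) and stood at -0.42 at ZT4. For the 5 measured mesothelial markers the median was also lowest at ZT12 (-2.15), and was -0.43 at ZT4. Not every marker followed these medians: 6 of the 11 and 3 of the 5 were lowest at ZT12. Of the 11, 2 were lowest at ZT16, Kit (-2.28 there) and Ano1, and Kit was highest at ZT12. The others of the 11 were lowest at ZT0 (2) or ZT4 (1).

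The genes whose course was most like the mean of the 7 members well above background on all 6 arrays were sought among 12133 candidates, of which 1.34% had r above 0.9. The first 10 by Pearson's r over 6 arrays were Rbpms2 (0.984), Fabp4 (0.981), Slc39a4 (0.979), Csgalnact1 (0.972), Slc2a9 (0.971), Myl9 (0.967), Synm (0.965), 1190005I06Rik (0.965), Macc1 (0.962) and Apoe (0.962). Rbpms2 encodes an RNA-binding protein known from visceral smooth muscle, Myl9 the myosin light chain and Synm synemin, an intermediate filament protein of muscle. Fabp4, the fatty acid binding protein of adipocytes and capillary endothelium, and Apoe, the lipid carrier of macrophages, have no such role. Rbpms2 had levels of 0.13, 1.40, -0.06, 0.45, -2.11 and -0.15 from ZT0 to ZT20, which followed Acta2 in its high and its low array.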

How the data were processed

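Islet RNA was hybridised to 6 one-colour Agilent arrays. The authors' scanner files came from Agilent Feature Extraction 11.0.1.1 (per the file headers and the submitters' processing notes), whose processed signal is a linear intensity, background-subtracted and not normalized between arrays. The other deposited columns were spot and background intensity and flags of 0 or 1. The authors' deposited table held log2 values for 30170 probes with column medians of 8.62 to 8.63; how the authors made them is not given in the sources used here, and they served as an alternative. A genome build was not given in the sources used here.

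Spots of a probe were averaged (39429 probes), and each was put on the log2 scale and set against the 75th percentile of its array. Probes took symbols by accession from RefSeq names of GRCm38.p6 (27234 matched). A probe was measured when well above background on at least 3 arrays and not an outlier on all its spots on any array, and the probe of highest mean stood for a gene, giving 24147 genes, of which 7322 had no symbol and were kept under the name in the files, so several may belong to 1 gene. A level not well above background was set to the higher of itself and the lowest detected level of that array when ranges, deviations and counts were made, and such a fold is written as at least. Deviations are from a gene's mean over the 6 arrays, and 2-fold counts are against the median of the other 5. The cosine (3 residual degrees of freedom) was fitted with limma 3.58.1 in R 4.3.3 and was checked on simulated data. The number of arrays limits the precision.

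The members, the lists and the alternatives were chosen with earlier results of these data known. Genes named were the members; in each list of other smooth muscle genes the 2 of highest mean and the 2 of largest range among genes well above background on all 6 arrays; in each marker list the 2 of highest mean, of which some are named; and the 10 genes of highest likeness. One gene named by this rule is not reported here. Genes past an unadjusted p of 0.05, Myocd, Ins1, Thy1, Cdx2, Clca1 and Sis were named after their values were seen. So were Kcnj8, Esam, Rgs5, Pecam1, Tek, Kit and the skeletal muscle genes other than Acta1. Scalings, background corrections, probes, filters, the shared slide and each array left out were the alternatives.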

Additional observations from a re-analysis of the deposited data

How the results depend on the processing

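No paired analysis was possible because each time was 1 array. The median deviation of the contractile genes at ZT16 was -1.02 with the normexp correction and between -2.62 and -1.98 in the other settings. With the 4 arrays of the shared slide, the ZT8 and ZT12 medians were 0.99 and 1.24, the reference being the mean of those 4. With members well above background on all 6 arrays, 7 genes remained, and 5 of them were 2-fold below at ZT16 and 4 at ZT20. Leaving out each array in turn gave ZT8 medians of -0.30 to 0.85, the highest without ZT4, and ZT0 medians down to -0.11 (without ZT16), with 0.04 under normexp, in place of 0.47. The count 2-fold above at ZT4 ran from 4 to 7 over all settings. The cosine passed 0 genes after adjustment in every setting run. At an unadjusted p under 0.05 it gave 968 of all genes, 441 with scan as a covariate, and 348 to 4028 without 1 array (4028 without ZT8, 2453 without ZT12, 423 without ZT16, 348 without ZT20). For the 75 other smooth muscle genes it gave 4, and 2 to 24 without 1 array (24 without ZT8, 19 without ZT12, 2 without ZT4, ZT16 or ZT20). The causes were not tested. Among all recomputed values, 115 moved by more than 0.58 log2 units (1.5-fold), 1042 did not, and 0 of those at least 2-fold from the mean changed sign. Depth limits Des, Myh11 and Lmod1, which were not well above background at ZT16.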
